A study of Homo sapiens with 12 samples.

Results

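Wnt and beta-catenin target genes were examined in the human liver cancer line HepG2 after knockdown of the RNA-binding protein IGF2BP3. The members were 10 genes of the 58721 in the deposited count tables, chosen by name and joined to the tables by GENCODE symbol: CTNNB1, AXIN2, LGR5, NKD1, SP5, TBX3, GLUL, RNF43, ZNRF3 and DKK1. The list was set by name and by no threshold on these values, with earlier results of these data known. The cells were given either siControl, a control siRNA, or siIGF2BP3, which targets IGF2BP3, and treated with 100 µg/mL cycloheximide for 4 min at 2 days after knockdown. Ribosome-protected fragments (RPF) of 28 to 30 nt were recovered after RNase I digestion, and Input libraries were taken as the measure of transcript abundance. The labels attach the RPF protocol to the Input samples too, and the preparation of the Input libraries is not stated, which bears on every Input value and every ratio of RPF to Input. Each of the 4 groups (siControl Input, siIGF2BP3 Input, siControl RPF and siIGF2BP3 RPF) held 3 libraries. All 12 libraries came from this 1 line and from transient knockdown. Nothing in the labels says whether the replicates were separate cultures, so the p-values measure the spread between these libraries, which may be technical.

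In the canonical Wnt pathway, a destruction complex built on axin and APC marks beta-catenin, the product of CTNNB1, for degradation. Wnt binding to Frizzled and LRP receptors stops this complex, and stabilised beta-catenin enters the nucleus and activates genes together with TCF/LEF factors. Many of these genes are feedback inhibitors of the pathway itself, and in the liver the pathway sets the pericentral programme of hepatocytes, of which GLUL is a marker. HepG2 carries an activating deletion in CTNNB1, which makes the beta-catenin protein resistant to degradation and is shared by both conditions.

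Before the values, the sequences below show where TCF/LEF core motifs lay in the member promoters. This search was made after the changes on knockdown were seen, and any relation of the matches to those changes was not tested. The windows come from RefSeq promoters (250 bases before to 50 after the start site, build GRCh38.p14), which held 7 entries for 5 of the 10 members: CTNNB1, SP5, GLUL, RNF43 and DKK1. The letters searched on both strands were CTTTGAT and CTTTGAA. SP5 had 3 matches, at -148, -109 and -84 bases from its start site, and DKK1 had 1 at -95 (first base of the match). All windows are on the plus strand, 5′ to 3′, with the match in capitals, and the last 2 SP5 windows share bases. A match on the opposite strand reads as its reverse complement.
SP5, chr2:170715178-170715206: agctttgtggaTTCAAAGgatttgctttc
SP5, chr2:170715217-170715245: gagccgctattCTTTGATgattgggtagc
SP5, chr2:170715242-170715270: tagcggcaaacTTCAAAGccataaatctt
DKK1, chr10:52314175-52314203: ccctcccagcgCTTTGAAatcccatcccg

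Of all 35116 RefSeq promoters of this length, 6.86% held at least 1 such match, against 2 of the 7 member entries. The match is a description of these letters and not a measured binding site. The entries for CTNNB1, GLUL and RNF43 held no match in this window. AXIN2, LGR5, NKD1, TBX3 and ZNRF3 were not matched to an entry.

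The libraries held 11219750 to 14797573 counts in Input and 13036423 to 31510601 in RPF, and levels are in CPM, which scales every library to an equal total. The edgeR log2 fold changes apply further scaling factors (TMM). They can therefore differ in size from the CPM beside them and, near 0, in sign, as for CTNNB1 and NKD1 in Input. IGF2BP3 itself fell by 0.39 on the log2 scale in Input, from 127 to 133 CPM in siControl to 97.9 to 105 CPM in siIGF2BP3 (edgeR, adjusted p = 1.06e-05), and its RPF value was -1.59 (edgeR, adjusted p = 3.01e-04). siControl RPF replicates 2 and 3 differed by less than the sampling noise. They enter means and SDs as 1 sample, so that this group has n = 2 in those values. The edgeR tests with all libraries kept them as separate libraries, and tests with their counts summed are given as an alternative. Summing cut the genes called in RPF from 336 to 14. siIGF2BP3 RPF replicate 1 stood apart from its group, with a mean chi-square per gene of 19.9 and 21.5 against replicates 2 and 3, which gave 1.15 against each other. It also had the lowest count of the RPF libraries and the lowest share of protein-coding counts, at 82.7%, and the footprint results below are given with and without it. The 8 hepatocyte markers were all at 1 CPM or more in every group. Their summed level ran from 51303 to 52109 CPM in siControl Input and from 47372 to 47734 CPM in siIGF2BP3 Input, with falls in ALB, AFP, APOA1 and SERPINA1. Among 5 blood markers PTPRC, CD3E and HBB were at or near 0, while LYZ, a secreted lysozyme, stood at 3752 CPM in siControl Input and 3495 CPM in siIGF2BP3 Input (log2 change -0.15, edgeR adjusted p = 0.0406). The ALB call was lost when replicate 3 of either Input group was left out, and the LYZ call when any 1 Input library other than siControl replicate 1 was. Of 6 endothelial and stromal markers, ACTA2 (33.3 CPM) and PECAM1 (1.48 CPM) were highest in siControl Input. Of these 6 markers 3 passed the filter in Input, and none was called. The part of these markers in the results below was not tested, and in such bulk libraries fewer cells of a type and less RNA per cell cannot be told apart.

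All 10 members were expressed in every library and passed the filter on low counts in each comparison. Per kb of the exons in the count tables, the order in siControl Input was SP5 (66.6 CPM per kb), DKK1 (41.2), GLUL (27.3), NKD1 (24.5), AXIN2 (16.6), CTNNB1 (14.1), LGR5 (10.7), RNF43 (9.40), ZNRF3 (7.91) and TBX3 (4.76). The 3 libraries of each gene in this order stood above all 3 of the next. In siControl RPF the order per kb became DKK1 (181), CTNNB1 (72.2), SP5 (67.5), LGR5 (31.2), GLUL (25.4) and NKD1 (10.7). ZNRF3, TBX3 and AXIN2 followed at 6.42, 6.28 and 6.11 with overlapping libraries, and RNF43 was lowest at 3.38. The place of CTNNB1 depends on the length used, because its exons in the tables add up to 11927 bases and its MANE Select transcript is much shorter. Per kb of that transcript, CTNNB1 moved to the place behind SP5 and DKK1 in siControl Input (46.0 CPM per kb) and to the first in siControl RPF (235, with DKK1 at 221).

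**Figure D1:**
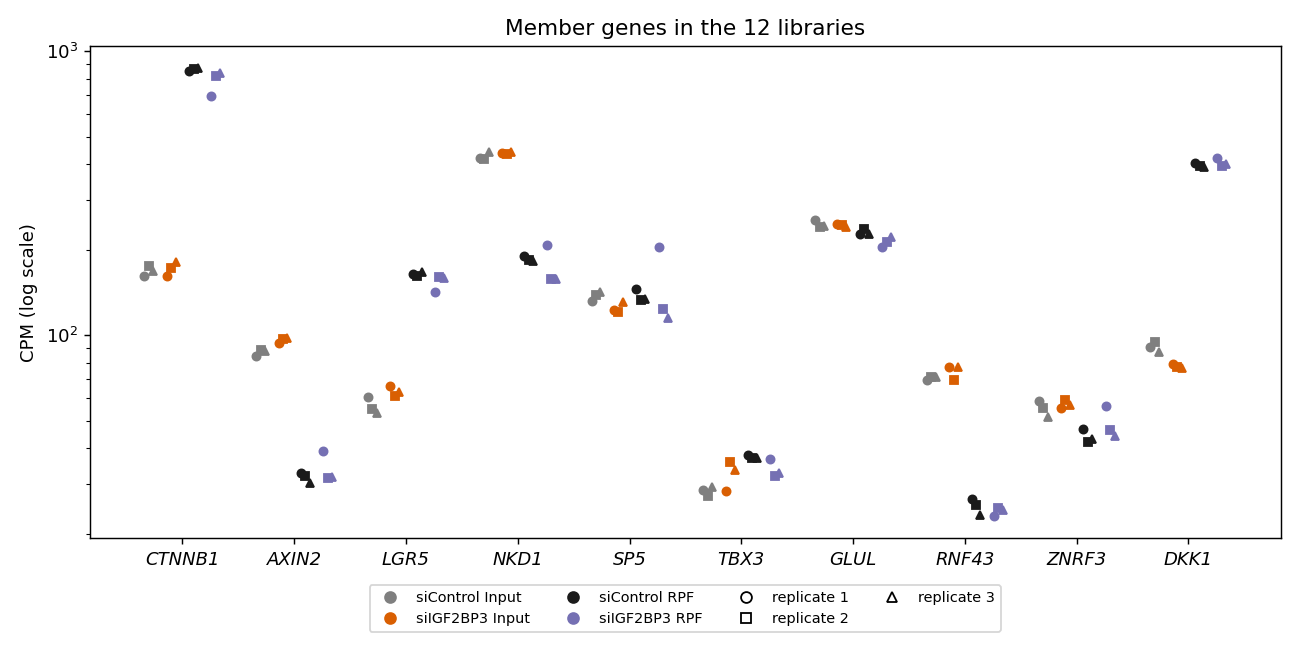
CPM on a log axis for the 10 member genes in all 12 libraries, with colours for the 4 groups and marker shapes for the replicate. CTNNB1, LGR5 and DKK1 lie far higher in RPF than in Input, while AXIN2, NKD1 and RNF43 lie lower, and siIGF2BP3 RPF replicate 1 stands apart for SP5 at 205 CPM.

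The ratio of RPF to Input describes how many footprints a transcript gave for its abundance. It was taken from CPM without TMM factors, unlike the tested differences given further below. The members spread over nearly the whole range of this ratio. CTNNB1 (5.10 in siControl, 98.3rd percentile of 9365 protein-coding genes), DKK1 (4.37, 97.2nd) and LGR5 (2.90, 91.8th) were near the top. TBX3 (1.32), SP5 (1.01), GLUL (0.932) and ZNRF3 (0.813) lay around the median of 0.936. NKD1 (0.437, 20.1st), AXIN2 (0.370, 15.8th) and RNF43 (0.363, 15.3rd) were low. Since the counts cover all exons, the ratio was also scaled for the share of the transcript that is coding. With RPF divided by coding length and Input by exon length of the MANE Select transcript, NKD1, whose coding part is 8.28% of its transcript, moved to the 85.0th percentile of 9066 genes, and GLUL, with 14.8%, to the 89.2nd. DKK1 (95.8th), CTNNB1 (93.2nd) and LGR5 (83.0th) stayed high, and RNF43 (12.2nd) and AXIN2 (10.2nd) stayed low on that scale.

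Sequence around the start codon and ahead of it is shown for the members high or low on either scale, because both are features of the transcript that the choice of genes did not use. The windows are 9 bases before the ATG, the ATG in capitals and the 3 bases after it, from GENCODE 44 MANE Select transcripts.
CTNNB1: gcgtggacaATGgct
DKK1: ccttctgagATGatg
LGR5: tcgggcaccATGgac
GLUL: ccttccaccATGacc
NKD1: agccccagcATGggg
AXIN2: tccctcaccATGagt
RNF43: gctggtagcATGagt

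CTNNB1, LGR5 and NKD1 have a purine 3 bases before the ATG and a G right after it, as did 47.9% of the 9066 reference transcripts, and SP5 shares this. The other 6 members do not have both. CTNNB1, LGR5, DKK1 and GLUL have no ATG upstream of the start codon, whereas RNF43 has 18, ZNRF3 has 3, AXIN2 and TBX3 have 2 each, and NKD1 and SP5 have 1 each. At least 1 upstream ATG was present in 37.0% of the reference transcripts. These are counts over 10 transcripts, and their relation to the ratio was not tested.

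**Figure D2:**
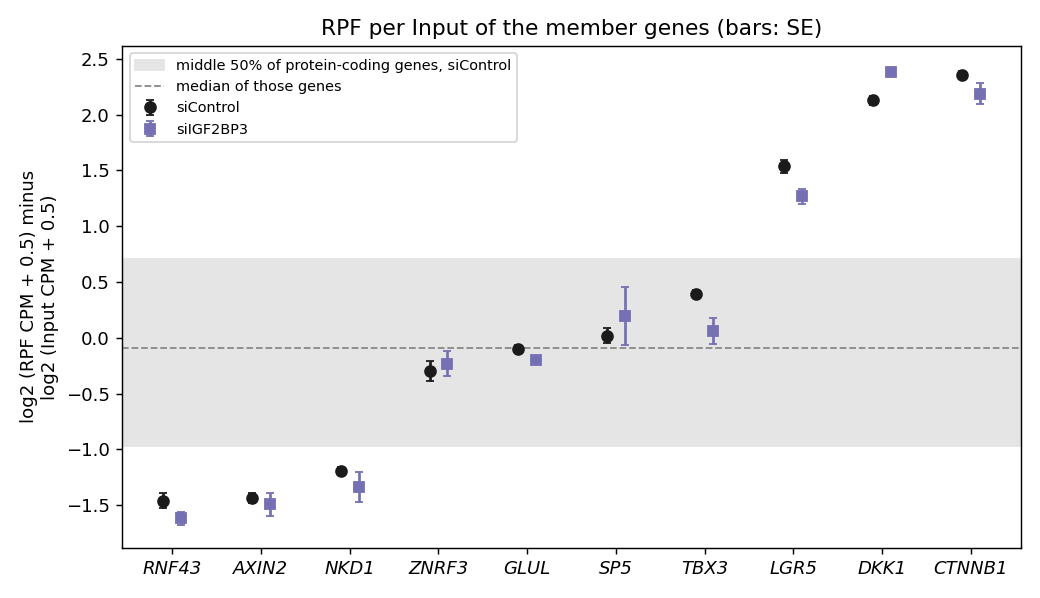
RPF per Input of the 10 members as log2 (RPF CPM + 0.5) minus log2 (Input CPM + 0.5), in siControl and siIGF2BP3 with bars of 1 SE, over the middle 50% of 9365 protein-coding genes in siControl (grey band) and their median (dashed line). CTNNB1, DKK1 and LGR5 lie above the band and RNF43, AXIN2 and NKD1 below it in both conditions.

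Knockdown changed the transcript level of 2 of the 10 members, DKK1 and SP5, and both fell (edgeR quasi-likelihood test, Benjamini-Hochberg adjusted p under 0.05). Of 14759 genes tested, 5.96% were called in this comparison, so the share among the members was higher, but 2 genes are a small base. At an unadjusted p under 0.05 the Input count was also 2 of the 10, against 20.4% of all genes. The median log2 fold change was -0.00 over the members and 0.00 over all genes tested, and 5 of the 10 members had a positive value. No member was called in RPF, where 1.66% of 20192 genes were called. At an unadjusted p under 0.05 the count was also 0, against 16.1% of all genes, as was the count by DESeq2, which called 1.87% of the 34396 genes given to it. For RPF per Input, tested as the interaction of assay and knockdown and written TE below, 1 of the 10 was called (DKK1, which rose), against 2.17% of 13395 genes. The TE count at an unadjusted p under 0.05 was 3 of the 10, against 15.9% of all genes. The median TE change was -0.04 over the members and 0.01 over all genes.

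Without siIGF2BP3 RPF replicate 1, the calls in RPF changed to 3 falls of 10 (NKD1, SP5 and TBX3), but the share over all genes then grew to 16.5%. In TE there were 3 calls of 10 (DKK1 higher, NKD1 and TBX3 lower), against 10% of all genes. The knockdown group is then siIGF2BP3 RPF replicates 2 and 3, with a mean chi-square per gene of 1.15 against each other. This is near the 0.941 of siControl RPF replicates 2 and 3, while Input pairs within a group gave 2.05 to 3.55. Standard errors and p-values without replicate 1, here and below, rest on a spread near sampling noise and may be too small. With siControl RPF replicates 2 and 3 summed in addition, the counts were again 3 and 3, against 14.4% and 8.04%. With these libraries summed and replicate 1 kept, no member was called in RPF (0.0674% of all genes) or TE (1.06%).

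**Figure D3:**
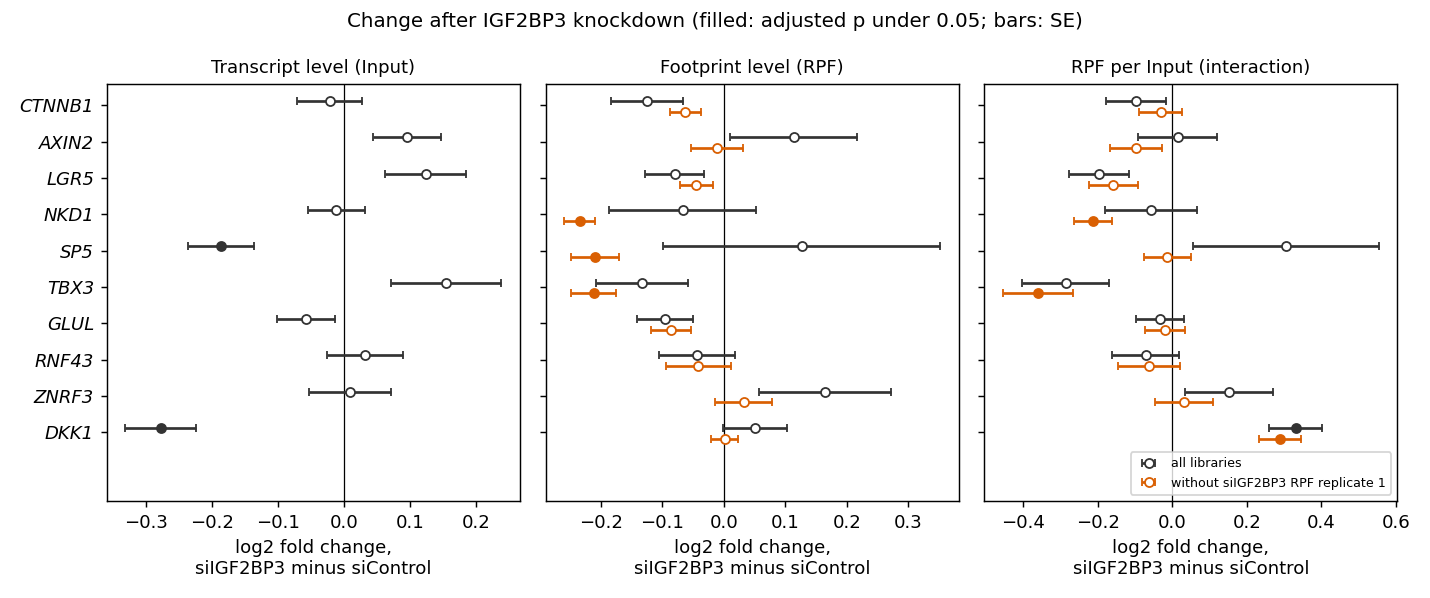
Log2 fold change of siIGF2BP3 against siControl for the 10 members in Input, RPF and TE (edgeR, bars of 1 SE, filled where the adjusted p was under 0.05), with all libraries and without siIGF2BP3 RPF replicate 1. DKK1 and SP5 fell in Input, SP5 passed from 0.13 to -0.21 in RPF when that library was left out, and DKK1 rose in TE both ways.

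CTNNB1, which encodes beta-catenin (chr3:41194741-41260096, plus strand, hg38), gave 161, 175 and 169 CPM in siControl Input replicates 1 to 3 and 162, 172 and 180 CPM in siIGF2BP3 Input. These groups overlapped, with means of 168 and 171 CPM. The log2 fold change, with TMM factors, was -0.02 ± 0.05 (SE; edgeR, adjusted p = 0.852). In RPF it gave 851, 869 and 872 CPM in siControl and 695, 822 and 836 CPM in siIGF2BP3. All 3 knockdown libraries lay below the control libraries, with replicate 1 lowest by far, yet the difference did not pass the test (-0.12 ± 0.06, edgeR adjusted p = 0.357). Without that replicate the groups still did not overlap, and the difference was -0.06 ± 0.03 (edgeR, adjusted p = 0.127). The TE difference was -0.10 ± 0.08 (edgeR, adjusted p = 0.618), and -0.03 ± 0.06 without it.

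The genes whose levels followed CTNNB1 most closely over the 12 libraries, by Pearson correlation of log2 CPM centred within each assay, were PATL1 (r = 0.967), SNRNP200 (0.962) and EPG5 (0.959), among 9759 genes. This is a description over libraries that share depth and preparation, and siIGF2BP3 RPF replicate 1, where CTNNB1 was lowest, is one of the 12 points.

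Among the secreted inhibitors, DKK1 blocks the LRP coreceptors of Wnt. The gene lies at chr10:52314296-52318042 (plus strand, hg38), and its promoter window with the TCF/LEF match is printed above. Its Input level was 91.1, 94.4 and 87.5 CPM in siControl and 79.2, 77.0 and 76.6 CPM in siIGF2BP3. Every knockdown library lay below every control library. Mean levels were 91.0 ± 3.48 CPM in siControl and 77.6 ± 1.42 CPM in siIGF2BP3 (SD, n = 3 each). The tested log2 fold change, with TMM factors, was -0.28 ± 0.05 (SE; edgeR, adjusted p = 0.00201). The fall was called in all 13 alternatives to this comparison.

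The footprints of DKK1 did not fall with its transcript. They stood at 405, 394 and 392 CPM in siControl and 421, 396 and 401 CPM in siIGF2BP3, and the groups overlapped (log2 fold change 0.05 ± 0.05, edgeR adjusted p = 0.708). Without siIGF2BP3 RPF replicate 1 the RPF difference was 0.00 ± 0.02. The TE difference was therefore 0.33 ± 0.07 (edgeR, adjusted p = 0.0180), and without siIGF2BP3 RPF replicate 1 it was 0.29 ± 0.06 (edgeR, adjusted p = 0.00142). As a ratio of CPM, with siControl RPF replicates 2 and 3 as 1 sample, RPF per Input went from 4.37 in siControl to 5.20 in siIGF2BP3 (log2 2.13 and 2.38). This ratio is on another scale than the TE difference. The size of the TE difference held in every alternative, but the call did not. With siControl RPF replicates 2 and 3 summed it was 0.33 with an edgeR adjusted p of 0.0589. On log2 ratios paired by replicate number, limma gave 0.33 with an adjusted p of 0.277. That setting called 0 of 13395 genes, so no gene kept a call in it. The DKK1 call was also lost without any 1 of the 3 siControl RPF libraries (edgeR adjusted p from 0.0508 to 0.0670), and when siControl Input replicate 2 (0.0506) or siIGF2BP3 Input replicate 3 (0.0566) was left out. A block joining Input and RPF libraries of the same condition and replicate number gave 0.0527. The labels do not say that such libraries came from 1 culture. PRKG1-AS1, an antisense RNA that shares 212 exon bases with DKK1, was at 0.472 CPM in siControl Input.

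SP5 encodes a zinc-finger transcription factor of the Sp family that acts downstream of beta-catenin, and lies at chr2:170715351-170718078 (plus strand, hg38). Its Input level was 132, 138 and 142 CPM in siControl and 122, 121 and 131 CPM in siIGF2BP3. The groups came close but did not overlap, and SP5 fell by 0.19 on the log2 scale, with an SE of 0.05 (edgeR, adjusted p = 0.0231). This call was lost when siControl Input replicate 2 or 3, or siIGF2BP3 Input replicate 1 or 2, was left out (-0.16 to -0.18, edgeR adjusted p from 0.0586 to 0.141).

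In RPF, SP5 was the member on which a single library weighed most. It gave 145, 133 and 134 CPM in siControl and 205, 123 and 115 CPM in siIGF2BP3. Replicate 1 of the knockdown was the highest of the 6 libraries and the other two were the lowest. With all libraries the log2 fold change was 0.13 ± 0.22 (SE; edgeR, adjusted p = 0.852). Without that replicate it turned to -0.21 ± 0.04 (edgeR, adjusted p = 0.00466), close to the Input value, and the TE difference went from 0.30 ± 0.25 to -0.01 (edgeR, adjusted p = 0.616 with all libraries).

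**Figure D4:**
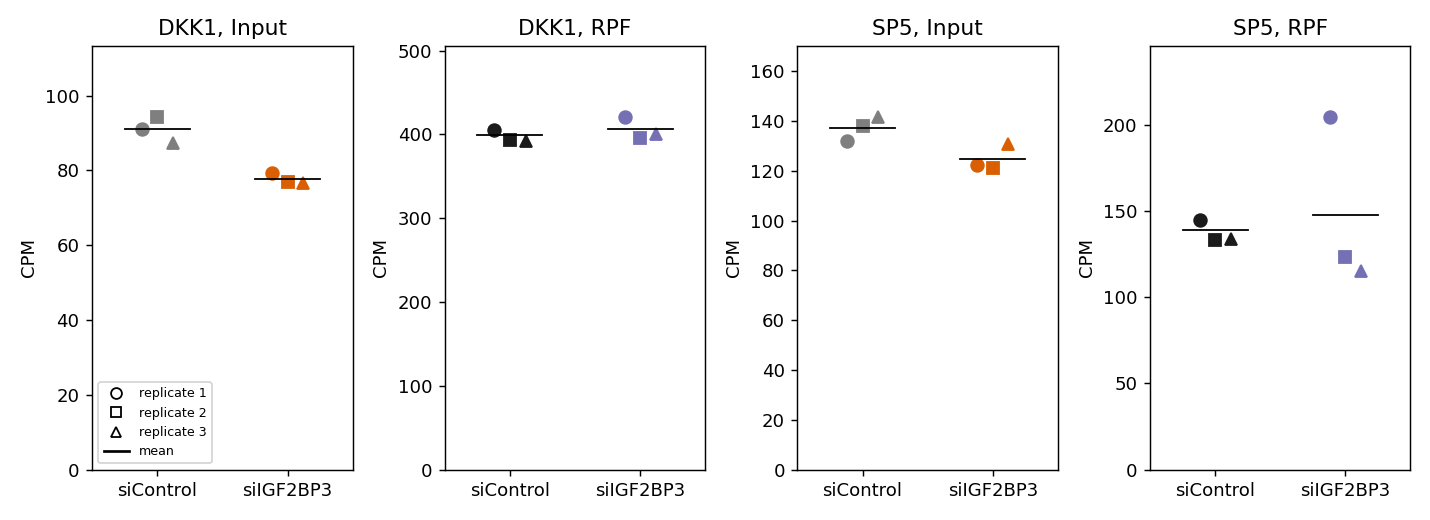
CPM of DKK1 and SP5 in each Input and RPF library of siControl and siIGF2BP3, with marker shapes for the replicate and a line at the group mean (siControl RPF replicates 2 and 3 counted as 1 sample); axes start at 0. DKK1 separates in Input (87.5 CPM or more against 79.2 CPM or less) and overlaps in RPF, and siIGF2BP3 RPF replicate 1 lies far above all other SP5 footprint values.

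TBX3 encodes a T-box transcription factor. Its Input level was 28.5, 27.2 and 29.3 CPM in siControl and 28.2, 35.7 and 33.6 CPM in siIGF2BP3, and the groups overlapped (0.15 ± 0.08, edgeR adjusted p = 0.303). Its footprints stood at 37.8, 37.0 and 37.0 CPM in siControl and 36.7, 31.8 and 32.6 CPM in siIGF2BP3. All knockdown libraries were lower, with replicate 1 just below the controls, and the difference of -0.13 ± 0.08 was not called (edgeR, adjusted p = 0.445). Without replicate 1 TBX3 fell by 0.21 in RPF (edgeR, adjusted p = 0.00334) and by 0.36 in TE (edgeR, adjusted p = 0.0148). With all libraries the TE difference of -0.29 ± 0.12 had an edgeR adjusted p of 0.222 and an unadjusted p of 0.0241.

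Among the intracellular feedback inhibitors, NKD1 acts on Dishevelled and was the most abundant member in Input by CPM. It gave 422, 419 and 442 CPM in siControl Input and 437, 433 and 444 CPM in siIGF2BP3 Input, which overlapped (-0.01 ± 0.04, edgeR adjusted p = 0.909). In RPF it gave 190, 184 and 182 CPM in siControl and 208, 158 and 158 CPM in siIGF2BP3. As for SP5, replicate 1 of the knockdown was the highest of the 6 libraries and the other two were the lowest. The log2 fold change was -0.07 ± 0.12 with all libraries (edgeR, adjusted p = 0.852) and -0.23 ± 0.02 without that replicate (edgeR, adjusted p = 1.73e-04). The TE difference without it was -0.21 ± 0.05 (edgeR, adjusted p = 0.00726).

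AXIN2 encodes a scaffold of the destruction complex and is a widely used readout of pathway activity. Its Input level was 84.7, 88.5 and 87.8 CPM in siControl and 93.6, 97.1 and 97.5 CPM in siIGF2BP3. Every knockdown library was higher, but the difference of 0.10 ± 0.05 was not called (edgeR, adjusted p = 0.306). In RPF the 6 libraries ran from 30.2 to 32.8 CPM in siControl and from 31.3 to 39.0 CPM in siIGF2BP3, with replicate 1 highest, and the difference went from 0.11 ± 0.10 to -0.01 without it. The TE difference was 0.01 ± 0.11 (edgeR, adjusted p = 0.965), and -0.10 ± 0.07 without that replicate. AXIN2 shares 1316 exon bases with ENSG00000266076 on the same strand, which held 6.36 CPM in siControl Input and 10.8 CPM in siControl RPF, and how reads were divided between them is not stated.

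The cell-surface ubiquitin ligases RNF43 and ZNRF3 remove Frizzled receptors, and neither changed past the threshold. RNF43 ran from 69.5 to 71.2 CPM in siControl Input and from 69.3 to 77.5 CPM in siIGF2BP3 Input (0.03 ± 0.06, edgeR adjusted p = 0.818). Its footprints ran from 23.2 to 26.5 CPM and from 23.1 to 24.5 CPM (-0.04 ± 0.06, edgeR adjusted p = 0.802), and without siIGF2BP3 RPF replicate 1 the difference was -0.04 ± 0.05. The TE difference was -0.07 ± 0.09 with all libraries and -0.06 ± 0.08 without that one. RNF43 shares 4326 exon bases with ENSG00000285897 on the same strand, which held 31.9 CPM in siControl Input and 50.8 CPM in siControl RPF. With the counts of both genes summed, RPF per Input in siControl was 0.750 in place of 0.363, so the low place of RNF43 holds for the count as divided in the tables. For AXIN2 the same sum gave 0.462 in place of 0.370. Summing changed no call.

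ZNRF3 ran from 51.4 to 58.7 CPM in siControl Input and from 55.6 to 59.2 CPM in siIGF2BP3 Input (0.01 ± 0.06, edgeR adjusted p = 0.962). In RPF it ran from 42.0 to 46.9 CPM and from 43.96 to 56.3 CPM, where replicate 1 was again highest (0.16 ± 0.11, edgeR adjusted p = 0.521). Without that replicate the ZNRF3 difference was 0.03 ± 0.05, and the TE difference went from 0.15 ± 0.12 to 0.03 ± 0.08.

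LGR5 encodes a receptor for R-spondins, which raise Wnt signalling by holding off RNF43 and ZNRF3. It gave 60.6, 55.1 and 53.2 CPM in siControl Input and 66.0, 60.9 and 63.2 CPM in siIGF2BP3 Input. The knockdown libraries were all higher by a narrow margin (0.12 ± 0.06, edgeR adjusted p = 0.261). In RPF it gave 164, 162 and 166 CPM in siControl and 142, 160 and 159 CPM in siIGF2BP3, all lower and replicate 1 lowest (-0.08 ± 0.05, edgeR adjusted p = 0.476). The opposite signs gave a TE difference of -0.20 ± 0.08, with an unadjusted p of 0.0237 and an edgeR adjusted p of 0.221. Without replicate 1 the RPF difference was -0.04 ± 0.03 and the TE difference -0.16 ± 0.07 (edgeR, adjusted p = 0.321 and 0.129). RPF per Input was 2.90 in siControl and 2.41 in siIGF2BP3.

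GLUL encodes glutamine synthetase, the marker of hepatocytes next to the central vein. It gave 255, 240 and 243 CPM in siControl Input and 247, 245 and 241 CPM in siIGF2BP3 Input, which overlapped (-0.06 ± 0.04, edgeR adjusted p = 0.494). In RPF it gave 226, 238 and 227 CPM in siControl and 205, 213 and 222 CPM in siIGF2BP3. These groups did not overlap, and the difference of -0.10 ± 0.05 was not called (edgeR, adjusted p = 0.359). It was -0.09 ± 0.03 without siIGF2BP3 RPF replicate 1 (edgeR, adjusted p = 0.105), so the distance did not rest on that library. The TE difference was -0.03 ± 0.06, and -0.02 ± 0.05 without that library.

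siIGF2BP3 RPF replicate 1 was thus the highest footprint library of its group for AXIN2, NKD1, SP5, TBX3, ZNRF3 and DKK1 and the lowest for CTNNB1, LGR5, GLUL and RNF43. The distance was largest for SP5, at 205 CPM against 115 and 123 CPM in the other libraries of the group.

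The other genes of the pathway numbered 102, in 6 lists by role. In Input 58 passed the filter and 1 rose, against 5.96% of all genes called. In RPF 56 passed and 1 fell, against 1.66% of all genes. In TE 53 passed with 0 calls by edgeR, against 2.17% of all genes. At an unadjusted p under 0.05 the TE count was 6, against 15.9% of all genes. The median log2 fold change of these pathway genes was 0.01 in each of the 3 comparisons. The gene that rose in Input was VEGFA, a vascular growth factor reported as a target (913 ± 120 CPM to 1166 ± 12.6 CPM, SD, n = 3 each, 0.30 ± 0.07, edgeR adjusted p = 0.0188), a call lost by DESeq2 (adjusted p = 0.0729) and without siControl Input replicate 3 or siIGF2BP3 Input replicate 1 or 3. The gene that fell in RPF was CEMIP, a hyaluronan-binding protein (147 ± 0.900 CPM to 110 ± 1.79 CPM, SD, n = 2 and 3, -0.40 ± 0.04, edgeR adjusted p = 0.00784), and without siIGF2BP3 RPF replicate 1 its difference was also -0.40. The CEMIP call was lost when any 1 siControl RPF library or siIGF2BP3 RPF replicate 2 was left out, and when the near-identical siControl RPF replicates were summed. Without siIGF2BP3 RPF replicate 1 the pathway genes gave 14 calls in RPF (3 rose, 11 fell, of 59) and 7 in TE (1 rose, 6 fell, of 54), next to 16.5% and 10% over all genes. These calls were not spread evenly over the lists. The further reported targets held 1 rise and 5 falls of 11 in RPF, and 0 rises and 4 falls of 10 in TE. The limit given above on p-values without that replicate applies here too.

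By role, 4 of 25 Wnt ligand and secretion genes passed the filter in Input, where WNT11 (3.34 CPM in siControl) and WNT3 (2.48 CPM) had the highest levels and none was called. Of 17 receptor and Dishevelled genes 12 passed, led by the coreceptor LRP5 (175 CPM) and the R-spondin receptor LGR4 (144 CPM), with no call. Of 12 destruction complex genes 11 passed, led by the kinase CSNK1A1 (170 CPM) and the scaffold AXIN1 (116 CPM), with no call and 9 positive values. All 13 nuclear partners passed, led by the corepressors TLE1 (115 CPM) and CTBP1 (73.6 CPM), with no call. Of 15 further inhibitors 7 passed, led by NOTUM (116 CPM), which removes the lipid from Wnt proteins, and KREMEN1 (17.2 CPM), a receptor of DKK1, with no call. These counts of 0 are by edgeR over the Input libraries, and at an unadjusted p under 0.05 they become 0, 2, 0, 1 and 1 in the same order, against 20.4% of all genes. Of 20 further reported targets 11 passed in Input, with 1 call (VEGFA) and 3 at an unadjusted p under 0.05.

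The liver zonation lists, which hold genes regulated by the same pathway in hepatocytes, gave 1 call each in the footprints. Over all genes, 1.66% were called in RPF. Of 10 pericentral genes 6 passed in RPF and 1 fell, CYP7A1, the rate-limiting enzyme of bile acid synthesis (1.75 to 0.650 CPM, -1.34 ± 0.17, edgeR adjusted p = 0.0170). CYP7A1 stood at 0.307 CPM in siControl Input and did not pass the filter there, so its footprint fall cannot be set against its transcript. Of 10 periportal genes 8 passed in RPF and 1 fell, HAL, which degrades histidine (11.3 to 6.46 CPM, -0.77 ± 0.08, edgeR adjusted p = 0.00767). HAL stayed level in Input at 52.5 and 53.6 CPM, and its TE fell by 0.74 (edgeR, adjusted p = 0.00251). In TE 1 of 8 periportal and 0 of 5 pericentral genes were called, against 2.17% of all genes. Without siIGF2BP3 RPF replicate 1 the RPF differences were -1.23 ± 0.17 for CYP7A1 and -0.73 ± 0.07 for HAL, and the TE difference of HAL was -0.70. In RPF 3 of 7 pericentral genes then fell, and of 8 periportal genes 1 rose and 2 fell, against 16.5% of all genes. In TE 0 of 6 pericentral genes were then called, and of 8 periportal genes 1 rose and 1 fell, against 10%. The CYP7A1 call was lost without any 1 library other than siIGF2BP3 RPF replicate 1, and the HAL call in RPF without any 1 of the siControl RPF libraries; with siControl RPF replicates 2 and 3 summed both were lost. None of the genes of either list was called in Input by edgeR (3 at an unadjusted p under 0.05, of 15 that passed the filter, against 20.4% of all genes).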

How the data were processed

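Input RNA and RPF were sequenced in 12 HepG2 libraries. Per the submitters' processing notes, the authors used cutadapt, STAR and featureCounts with hg38; versions, strand setting and the rule for shared reads are not given in the sources used here. The authors deposited estimated counts for each gene without any scaling, and many are fractions, as when a read is split between genes or alignments. They were rounded to whole numbers for testing. GENCODE 44 supplied symbols for 58252 of 58721 identifiers (99.2%).

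siIGF2BP3 was compared with siControl in Input, in RPF, and as the interaction of assay and knockdown (TE), with edgeR 4.0.16 (R 4.3.3): filterByExpr (for TE in both assays), TMM factors (for TE within each assay), robust quasi-likelihood tests and Benjamini-Hochberg adjustment over all genes tested, threshold 0.05. Standard errors are the log2 change divided by the square root of F. CPM were computed here from the deposited counts and the library totals. The scripts were tested on simulated data.

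Members and lists were chosen with earlier results of these data known. Named were all members, IGF2BP3, the called genes of every other list (the 4 largest changes where more than 4 were called) or, with none called, the 2 with the highest siControl Input mean, and for CTNNB1 the 3 genes most like it among those with at least 5 CPM in both assays. Ratios of RPF to Input used a pseudocount of 0.5 CPM.

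Alternatives were DESeq2 1.42.0, upper-quartile or RLE factors, testing without a filter or with a minimum mean of 5 CPM, the replicate number as a block, limma 3.58.1 on log2 ratios for TE, each library left out, siControl RPF replicates 2 and 3 summed, and, chosen after seeing the data, shared exons summed and those replicates summed with siIGF2BP3 RPF replicate 1 left out. Errors are the spread between libraries, since counting intervals without molecular identifiers would be too narrow.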

Additional observations from a re-analysis of the deposited data

Results flagged for a closer look

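The effect of knockdown differed between RPF and Input for DKK1, by 0.33 on the log2 scale, as tested by the interaction of assay and knockdown (edgeR, adjusted p = 0.0180), a call kept in 14 of 22 alternatives. For HAL the same test gave -0.74 (edgeR, adjusted p = 0.00251), a call kept in 21 of 22 alternatives and lost with limma on log2 ratios. That limma setting called 0 of 13395 genes. Single outlying libraries were not tested per gene, since each group holds 3 libraries.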

How the results depend on the processing

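Over all alternatives, 117 of 130 member values in Input, 139 of 150 in RPF and 200 of 220 in TE kept their direction and their side of the threshold. Most members were uncalled with all libraries, and the alternatives reuse the same libraries, so these totals do not measure stability. Leaving out 1 library at a time, the members called ranged from 1 to 2 in Input, 0 to 3 in RPF and 0 to 3 in TE, and the other pathway genes called from 0 to 1, 0 to 14 and 0 to 7. The share of all genes called ran from 2.95% to 6.04%, 0.0532% to 16.5% and 0.935% to 10% over the same settings. The highest RPF and TE counts are those without siIGF2BP3 RPF replicate 1. The lower Input count for members came when siControl Input replicate 2 or 3, or siIGF2BP3 Input replicate 1 or 2, was left out, and for pathway genes when siControl Input replicate 3 or siIGF2BP3 Input replicate 1 was. The member count in TE was 0 with siControl RPF replicates 2 and 3 summed, where 1.06% of all genes were called. It was also 0 with limma, which called 0 of 13395 genes, so that count says nothing about DKK1. The RPF count among pathway genes was 0 with those replicates summed, against 0.0674% of all genes. With those replicates summed and siIGF2BP3 RPF replicate 1 left out, 3 members were called in RPF and 3 in TE, with 14 and 6 pathway genes. The shares of all genes were then 14.4% and 8.04%. The cause of these shifts was not tested.

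Several values changed sign when 1 library was left out, most of them near 0, while SP5 in RPF passed from 0.13 to a called fall. In Input, ZNRF3 ranged from -0.037 to 0.044, CTNNB1 from -0.061 to 0.014, NKD1 from -0.032 to 0.014 and RNF43 from -0.0014 to 0.081. In RPF, AXIN2 ranged from -0.011 to 0.182, SP5 from -0.209 to 0.289 and NKD1 from -0.234 to 0.012. In TE, AXIN2 ranged from -0.097 to 0.078, SP5 from -0.013 to 0.462 and NKD1 from -0.213 to 0.018. The lowest of each RPF and TE range is without siIGF2BP3 RPF replicate 1. ZNRF3 in Input was -0.0026 with DESeq2, -0.0024 with upper-quartile factors and -0.00029 with no filter. With siControl RPF replicates 2 and 3 summed and siIGF2BP3 RPF replicate 1 left out, AXIN2 was -0.016, SP5 -0.22 and DKK1 -0.0011 in RPF, and AXIN2 -0.10 and SP5 -0.026 in TE. With shared exons summed, AXIN2 in TE was -0.0026.

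In Input the replicate numbers did not pair the libraries: correlations of deviations between same-numbered siControl and siIGF2BP3 libraries were 0.05, 0.00 and -0.03. In RPF they were 0.15, 0.10 and 0.04, while siControl replicate 1 gave -0.15 and -0.13 with siIGF2BP3 replicates 2 and 3. Between same-numbered Input and RPF libraries they were 0.02, 0.02 and -0.01 in siControl and -0.22, -0.13 and -0.12 in siIGF2BP3. The cause of the RPF pattern was not tested. With the replicate block the members called were 2 in Input, 0 in RPF and 0 in TE, against 6.31%, 1.88% and 0.903% of all genes, where DKK1 had 0.33 with an edgeR adjusted p of 0.0527, and the other pathway genes called were 1, 1 and 0.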
